A study of Mus musculus with 8 samples.

Results

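The endothelial cell genes were 10 genes chosen by symbol, among 28918 genes in the expression table: Cdh5, Pecam1, Kdr, Flt1, Tek, Tie1, Eng, Esam, Emcn and Robo4. All 10 were found. Of these, 9 had a mean of at least 1 TPM (a level scaled to transcript length and to the total of its library) over the tumors and were tested. Tek lay under that filter and is described by its values. The tumors with over-expression of Colq, called Colq tumors, numbered 3 and gave 1 library each. They were set against 3 vector tumors, 2 of which were sequenced as 2 portions each, so that this group gave 5 libraries. Both groups were bulk subcutaneous tumors of the mouse melanoma line B16mhgp100 in C57BL/6 mice. Every mouse, vector group included, had received an antibody against the T cell checkpoint receptor PD-1, from day 10 in 4 doses of 200 µg, with 2 doses a week and harvest 1 day after the last. Colq is the gene of the collagenous tail subunit by which acetylcholinesterase is held at the nerve-muscle synapse. The sources used here do not say how many clones or mice stand behind the tumors, so p-values measure the spread between these 3 and 3 tumors. No batch is labelled.

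Endothelial cells line blood and lymph vessels and hold together through adhesion proteins at their junctions. Their growth and stability depend on receptor families that they display, above all the receptors of vascular endothelial growth factor (VEGF) and the Tie receptors of the angiopoietins. Solid tumors draw in vessels of this kind, and T cells that enter a tumor must cross their walls. Several of the 10 genes are not exclusive to endothelium: Pecam1 is also carried by platelets and some leukocytes, Flt1 and Eng by some myeloid cells, and Eng by some mesenchymal and tumor cells.

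In the GENCODE M21 annotation of build GRCm38, which differs from the authors' build mm39, the 3 junction genes are Cdh5 (ENSMUSG00000031871, chr8:104101625-104144511), Pecam1 (ENSMUSG00000020717, chr11:106654217-106750628) and Esam (ENSMUSG00000001946, chr9:37528078-37538319). The VEGF receptor genes Kdr (ENSMUSG00000062960, chr5:75932827-75978458) and Flt1 (ENSMUSG00000029648, chr5:147561604-147726011) share a chromosome. So do the Tie receptor genes Tie1 (ENSMUSG00000033191, chr4:118471191-118490061) and Tek (ENSMUSG00000006386, chr4:94739289-94874976). The others are Eng (ENSMUSG00000026814, chr2:32646595-32682669), Robo4 (ENSMUSG00000032125, chr9:37401897-37415115) and Emcn (ENSMUSG00000054690, chr3:137341067-137432185). The libraries carry no strand, and Cdh5 and Eng overlap genes of the other strand in that annotation (Gm29682 and Fpgs), so reads in the overlaps cannot be assigned by strand.

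RefSeq promoter windows on GRCm38.p6, from 250 bases before to 50 after a start, were available for 7 of the 10 genes. They are shown for Flt1, which had the lowest relative level in Colq tumors, for Robo4, which had one of the smaller differences, and for Tek, the gene that did not share the direction of the others. Capitals mark GGAAG or its complement CTTCC, the core letters bound by ETS factors, the family of the endothelial regulators Erg and Fli1. The Flt1 window is chr5:147725962-147726261 (minus strand), the Robo4 window chr9:37401722-37402021 (plus strand) and the Tek window chr4:94739039-94739338 (plus strand), each 5′ to 3′.
Flt1: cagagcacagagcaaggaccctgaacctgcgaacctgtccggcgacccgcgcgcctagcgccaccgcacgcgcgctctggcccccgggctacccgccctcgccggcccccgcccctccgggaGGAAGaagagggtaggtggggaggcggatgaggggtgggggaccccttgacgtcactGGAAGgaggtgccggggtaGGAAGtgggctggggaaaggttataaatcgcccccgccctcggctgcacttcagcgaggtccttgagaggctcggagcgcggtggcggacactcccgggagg
Robo4: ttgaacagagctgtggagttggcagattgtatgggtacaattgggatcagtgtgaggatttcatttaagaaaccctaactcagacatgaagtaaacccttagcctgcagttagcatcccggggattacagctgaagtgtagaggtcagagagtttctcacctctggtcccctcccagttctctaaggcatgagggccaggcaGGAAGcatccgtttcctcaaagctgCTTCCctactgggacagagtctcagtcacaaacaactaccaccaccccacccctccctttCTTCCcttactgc
Tek: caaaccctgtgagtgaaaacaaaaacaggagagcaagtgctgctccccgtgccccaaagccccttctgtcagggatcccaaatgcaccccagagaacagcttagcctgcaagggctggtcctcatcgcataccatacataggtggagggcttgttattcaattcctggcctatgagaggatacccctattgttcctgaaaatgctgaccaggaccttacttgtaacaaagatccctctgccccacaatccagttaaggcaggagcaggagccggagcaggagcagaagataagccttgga
The letters occurred 3 times in the Flt1 window, 3 times in the Robo4 window and 0 times in the Tek window. Over both strands they were found in 6 of the 7 members' windows, and in 71.4% of all 32851 RefSeq windows, so their presence is common. The SOX letters AACAAT were found in 2 of the 7 windows, those of Tek and Emcn, against 10.7% of all windows. The forkhead letters TGTTTAC were in 0 of the 7, against 3.65% of all windows. The motif letters do not overlap one another. These matches describe the letters in these windows and nothing of what binds there.

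All 9 tested endothelial genes were lower in Colq tumors than in vector tumors (limma, Benjamini-Hochberg adjusted p under 0.05 over all genes tested), and 0 were higher, also at an unadjusted p under 0.05. Over all 13726 tested genes 59.6% were lower and 11.3% higher by the same rule, so a lower call alone was common. The median log2 fold change of the 9 genes was -1.21, with a range from -2.11 to -1.003, beside a median of -0.50 over all tested genes. Fold changes here are Colq minus vector on log2(TPM + 1), a scale that understates the change of low genes. After median-of-ratios size factors, which bring the median of all genes to -0.01, the 9 genes were again all lower, with a median of -0.83, where 26.8% of all genes were lower and 27.3% higher. With the trend on transcript length and GC content removed, 7 of 9 were lower with a median of -0.71, where 27.6% of all genes were lower and 19.8% higher. Tie1 (-0.57, adjusted p = 0.054) and Robo4 (-0.45, adjusted p = 0.15) did not pass on that scale. Both other scales are limma fits over all genes.

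**Figure D1:**
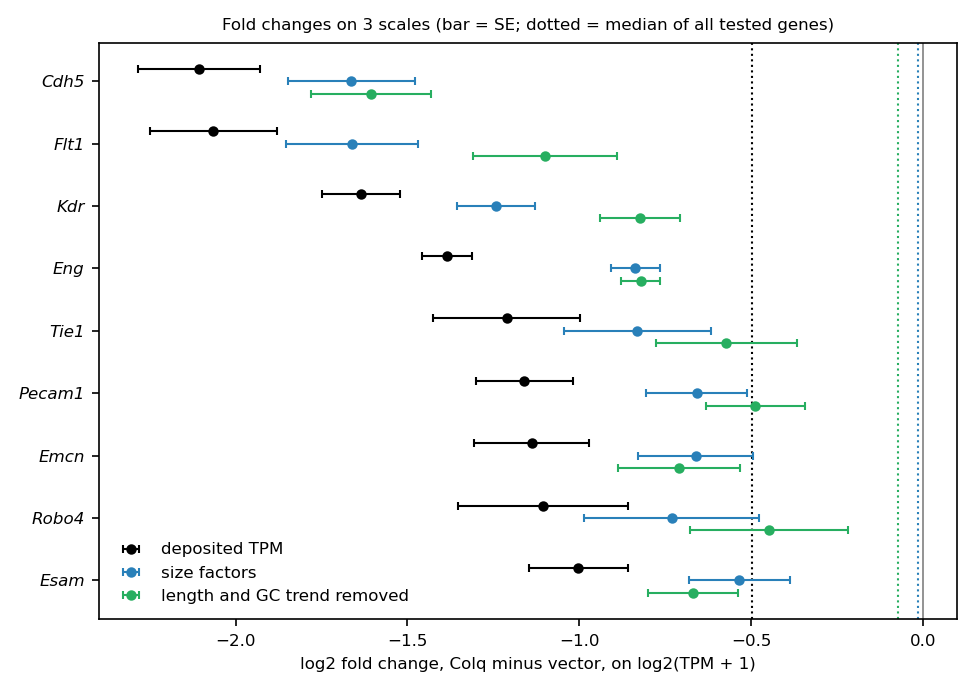
Log2 fold change (Colq minus vector, x axis) of the 9 tested endothelial genes, with bars for the SE, on deposited TPM, after size factors and with the length and GC trend removed; dotted lines give the median of all tested genes on each scale. All points lie left of 0, with Cdh5 lowest on each scale, at -2.11 on deposited TPM, -1.66 after size factors and -1.61 with the trend removed, Flt1 standing beside it at -1.66 after size factors.

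The 10 genes together summed to 75.0, 83.8 and 75.2 TPM in the Colq tumors, against 229.8, 231.8 and 191.7 TPM in the vector tumors. Eng made up between 68.1% and 70.6% of that sum in Colq tumors and between 63.0% and 68.8% in vector tumors. Without Eng the other 9 genes summed to 22.1, 26.6 and 24.0 TPM in Colq tumors and to 84.9, 82.4 and 59.8 TPM in vector tumors. In bulk tissue, fewer endothelial cells and less RNA of these genes per cell cannot be told apart.

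**Figure D2:**
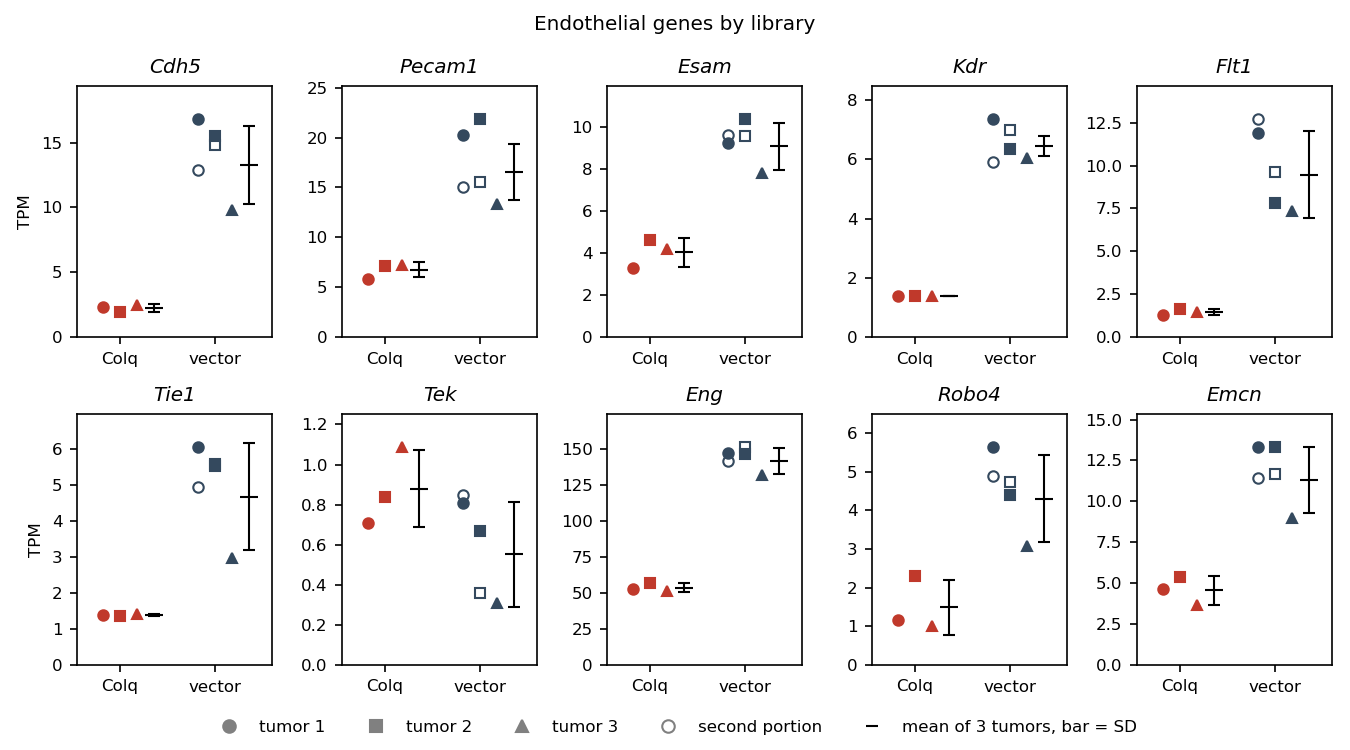
TPM (y axis, from 0) of each of the 10 genes in every library, Colq left and vector right, with 1 symbol per tumor, open symbols for second portions, and the mean and SD of 3 tumors beside them. For 9 genes the 3 Colq libraries lie under all 5 vector libraries; Tek, at most 1.09 TPM in any library, is the exception.

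Of the junction genes, Cdh5 encodes VE-cadherin, the main adhesion protein of adherens junctions in endothelium. The Colq libraries held 2.36, 1.92 and 2.50 TPM of it. In the vector libraries it was present at 16.83 and 12.88 TPM in the portions of tumor 1, at 15.47 and 14.80 in those of tumor 2 and at 9.81 in tumor 3. The groups did not overlap, and the highest Colq library was far under the lowest vector library. The log2 fold change was -2.11 (SE 0.18; limma, adjusted p = 4.7e-05), and mean TPM was 5.87 times as high in vector tumors. By fold change Cdh5 stood 16th from the lowest of all 13726 tested genes.

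Pecam1 encodes CD31, an adhesion molecule of endothelial cell contacts. It was at 5.87, 7.17 and 7.24 TPM in the Colq libraries, against 20.24 and 15.05 in vector tumor 1, 21.88 and 15.53 in tumor 2 and 13.36 in tumor 3. The groups lay apart although the portions of a vector tumor differed by up to 1.41-fold for this gene. Its log2 fold change was -1.16 (SE 0.14; limma, adjusted p = 0.00024).

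Esam encodes an adhesion molecule of endothelial tight junctions, also present on platelets. It was at 3.28, 4.62 and 4.22 TPM in Colq libraries, against 9.24 and 9.64, 10.40 and 9.56, and 7.83 TPM in vector tumors 1, 2 and 3. The groups did not overlap. Its log2 fold change of -1.003 (SE 0.14; limma, adjusted p = 0.00053) was the smallest in size among the 9 genes, and it fell to -0.53 after size factors (adjusted p = 0.018).

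Of the VEGF receptors, Kdr encodes VEGFR2, the main signaling receptor for VEGF-A. It was at 1.40, 1.40 and 1.38 TPM in the Colq libraries, against 7.37 and 5.90 TPM in the portions of vector tumor 1, 6.35 and 6.99 in those of tumor 2 and 6.06 in tumor 3. The Colq libraries were almost equal and all vector libraries lay well above them. Mean TPM was 4.63 times as high in vector tumors, and the log2 fold change was -1.64 (SE 0.11; limma, adjusted p = 2.6e-05).

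Flt1 encodes VEGFR1, which binds VEGF-A, VEGF-B and placental growth factor and also has a soluble form that these gene totals do not separate. It was at 1.29, 1.62 and 1.46 TPM in the Colq libraries, against 11.92 and 12.73 in vector tumor 1, 7.82 and 9.64 in tumor 2 and 7.38 in tumor 3. The groups lay apart, with vector tumor 1 highest. Mean TPM was 6.51 times as high in vector tumors, the widest ratio among the 10 genes. The log2 fold change was -2.06 (SE 0.18; limma, adjusted p = 6e-05), and -1.10 (adjusted p = 0.005) with the length and GC trend removed. Flt1 had the longest exonic sequence of the 10 genes, at 13504 bases.

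The Tie receptors, which respond to angiopoietins, did not move alike. Tie1, an orphan partner of Tie2, was at 1.38, 1.37 and 1.42 TPM in the Colq libraries, against 6.08 and 4.95 in vector tumor 1, 5.54 and 5.60 in tumor 2 and 2.97 in tumor 3. The groups lay apart, with vector tumor 3 nearest to the Colq tumors. Its log2 fold change was -1.21 (SE 0.21; limma, adjusted p = 0.0015), and -1.45 without vector tumor 3 (adjusted p = 0.00012). Counting the 3 Colq libraries as 1 sample, its adjusted p was 0.054.

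Tek encodes Tie2, the angiopoietin receptor itself. It was at 0.71, 0.84 and 1.09 TPM in the Colq libraries, against 0.81 and 0.85 in vector tumor 1, 0.67 and 0.36 in tumor 2 and 0.31 in tumor 3. The groups overlapped, the Colq mean of 0.88 ± 0.19 TPM standing above the vector mean of 0.55 ± 0.26 TPM (SD, n = 3 each; exact two-sided permutation p = 0.2). Tested with no filter on low values, its log2 fold change was 0.29 (SE 0.16; limma, adjusted p = 0.23). Without the filter 6.29% of 27546 genes were higher and 29.3% lower.

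Eng encodes endoglin, a co-receptor for bone morphogenetic proteins of the transforming growth factor beta family. It was at 52.93, 57.13 and 51.21 TPM in the Colq libraries, against 147.77 and 141.97 in vector tumor 1, 146.67 and 152.08 in tumor 2 and 131.97 in tumor 3. The groups did not overlap, and the vector libraries lay close together. Its level in TPM was 8.02 ± 0.97 times that of Pecam1 in Colq tumors, against 8.69 ± 1.03 times in vector tumors (SD, n = 3 each). The log2 fold change was -1.38 (SE 0.07; limma, adjusted p = 1.4e-05), the smallest adjusted p of the 10 genes.

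Robo4, a guidance receptor family member of endothelium that stabilizes vessels, was at 1.16, 2.30 and 1.00 TPM in the Colq libraries, against 5.65 and 4.89, 4.40 and 4.74, and 3.07 TPM in vector tumors 1, 2 and 3. The groups did not overlap, but Colq tumor 2 was near to vector tumor 3. The log2 fold change was -1.10 (SE 0.25; limma, adjusted p = 0.005), with the largest SE of the 9 genes.

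Emcn encodes endomucin, a sialomucin of capillary and venous endothelium. It was at 4.64, 5.40 and 3.65 TPM in Colq libraries, against 13.35 and 11.42, 13.31 and 11.70, and 8.97 TPM in vector tumors 1, 2 and 3. The groups did not overlap. Its log2 fold change was -1.14 (SE 0.17; limma, adjusted p = 0.00063).

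For 9 of the 10 genes, Tek being the exception, the 3 Colq libraries lay under all 5 vector libraries, as they did for 57.4% of all tested genes, with 9.92% lying above them. By tumor means, the 3 Colq tumors lay under the 3 vector tumors for the same 9 genes, as for 62.5% of all tested genes, with 12.2% above. Vector tumor 3 was the lowest vector library for 9 of the 10 genes, all but Kdr. Without it the median log2 fold change of the 9 genes was -1.44, and 9 were lower, as were 8216 of all 13726 tested genes. Between the portions of a vector tumor the 9 genes differed by between 1.01-fold and 1.41-fold, with a median of 1.12-fold over 18 pairs, where mean TPM was between 2.25 and 6.51 times as high in vector tumors as in Colq tumors. Colq libraries resembled one another more than vector tumors did: over all tested genes the median absolute log2 difference of 2 libraries was at most 0.111 for pairs of Colq tumors, against 0.148 to 0.225 for pairs of vector tumors and 0.144 and 0.219 for the portions of 1 tumor. Whether the 3 Colq libraries stand for 3 separate tumors, as their labels say, cannot be settled from these values, so n = 3 for this group rests on the labels. With the Colq libraries counted as 1 sample, the median log2 fold change of the 9 genes was -1.21, beside -0.50 over all tested genes.

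The fall was uneven among the 10 genes. Ratios within a tumor do not depend on scaling between libraries, but they keep the trend on length and GC content. Kdr and Flt1 are longer than Pecam1, at 9030 and 13504 exonic bases against 6228. With the trend removed, the fold changes were -1.61 for Cdh5, -1.10 for Flt1, -0.82 for Kdr, -0.82 for Eng and -0.49 for Pecam1. Relative to Pecam1, a choice made after the values were seen, Cdh5 stood at 0.40, 0.27 and 0.35 in Colq tumors, against 0.84, 0.81 and 0.73 in vector tumors. Flt1 stood at 0.22, 0.23 and 0.20 in Colq tumors, against 0.70, 0.47 and 0.55 in vector tumors. Kdr stood at 0.24, 0.20 and 0.19 in Colq tumors, against 0.38, 0.36 and 0.45 in vector tumors. These 3 genes were therefore lower relative to Pecam1 in every Colq tumor than in any vector tumor, as were 1.34% of the other tested genes, while 58.8% were higher relative to it.

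Tek stood the other way, at 0.12, 0.12 and 0.15 of Pecam1 in Colq tumors, against 0.05, 0.03 and 0.02 in vector tumors. This is the side on which 58.8% of tested genes lay relative to Pecam1. The TPM of Tek itself overlapped between the groups as deposited. Tek was not fitted after size factors, which were 0.78 to 0.81 in Colq libraries and 1.12 to 1.24 in vector libraries. Dividing by them raises its Colq values and lowers its vector values, so the overlap holds for the deposited scale only. The ratios of Tie1, Eng, Esam, Emcn and Robo4 to Pecam1 overlapped between the groups, with exact two-sided permutation p-values between 0.2 and 1.0 (n = 3 each). For Cdh5, Flt1, Kdr and Tek the exact permutation p was 0.1, the smallest that 3 against 3 tumors allows, and 0.225 after adjustment over the 9 ratios.

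**Figure D3:**
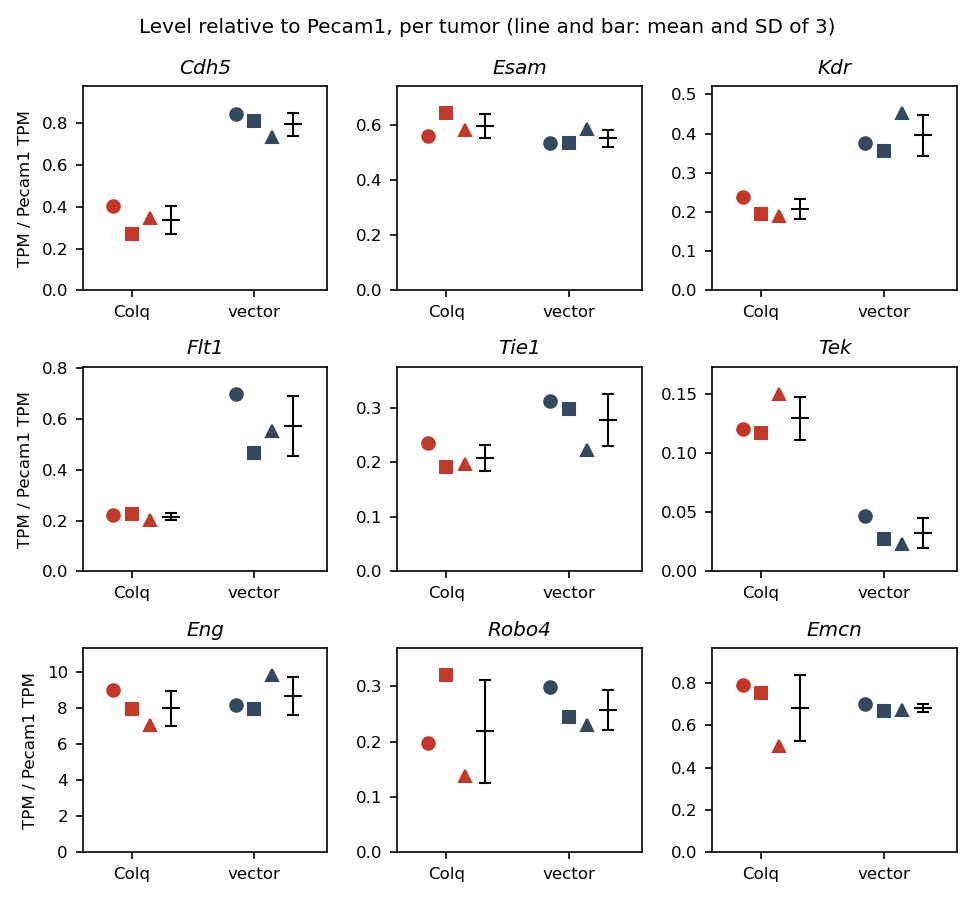
TPM of 9 endothelial genes divided by that of Pecam1 in the same tumor (y axis, from 0), Colq left and vector right, with 1 symbol per tumor (circle, square and triangle for tumors 1, 2 and 3) and the mean and SD of 3 tumors beside them. Cdh5, Kdr and Flt1 are lower in all Colq tumors, Tek is higher in all, as were 58.8% of tested genes, and the other 5 overlap.

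Fold changes in these libraries followed exonic length over all genes, and the endothelial genes are mostly long. Among tested genes of 4000 to 8000 exonic bases, which include Cdh5, Pecam1, Tie1, Eng, Emcn and Robo4, the median log2 fold change was -0.64 and 73.9% were lower. Among those of 8000 bases or more, with Kdr and Flt1, the median was -0.88 and 86.9% were lower. Among those of 2000 to 4000 bases, with Esam, the median was -0.38 and 55.3% were lower.

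Each of the 9 genes stood under the median of its own length class. In those classes, 0.19% of genes had a fold change as low as that of Cdh5, 0.23% as low as that of Flt1, 2.32% as low as that of Kdr and 2.66% as low as that of Eng. The share was 6.44% for Esam, 6.52% for Tie1, 8.73% for Pecam1, 9.43% for Emcn and 11.1% for Robo4. With the trend removed, the fold changes were -1.61 for Cdh5, -0.82 for Kdr, -0.82 for Eng, -0.71 for Emcn, -0.67 for Esam and -0.49 for Pecam1 (limma, adjusted p between 0.0001 and 0.028).

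**Figure D4:**
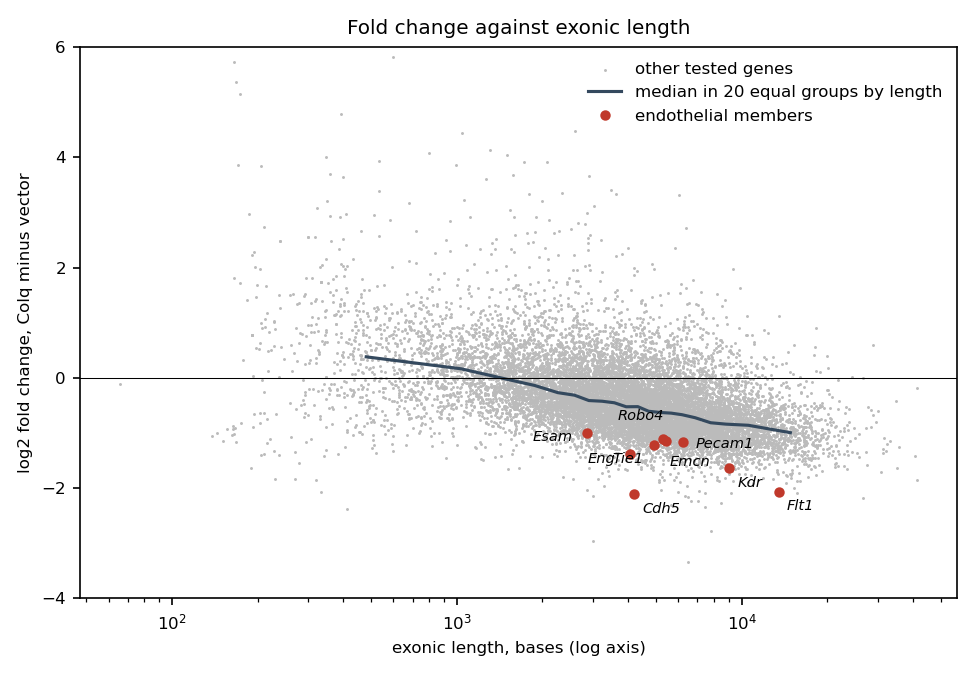
Log2 fold change (Colq minus vector, y axis) against exonic length in bases (x axis, log scale) for tested genes, in grey, with the median in 20 groups of equal size as a line and the 9 tested endothelial genes in red. All 9 lie under the line, Cdh5 and Flt1 the farthest; a few genes beyond the axis are not drawn.

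The authors' deposited table, a comparison of their own, gave the same sign for the 9 genes, with log2 fold changes of -2.01 for Cdh5, -2.16 for Flt1, -1.67 for Kdr, -1.21 for Tie1 and -1.02 for Robo4. In the authors' deposited table Eng was at -0.86, Emcn at -0.77, Pecam1 at -0.74 and Esam at -0.62. All 9 had an adjusted p under 0.05 in the authors' deposited table, where 20.4% of 19153 genes with an adjusted p were lower and 20.1% higher. Tek was at 1.22 in the authors' deposited table (adjusted p = 0.012), a higher call. On TPM it was fitted only as deposited, without size factors and with no filter (0.29; limma, adjusted p = 0.23). That log2(TPM + 1) scale understates the change of low genes. The mean TPM of Tek was 1.595 times as high in Colq tumors as in vector tumors. Why the calls differ was not tested.

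The comparison was extended to other endothelial genes from a list of 35, of which 30 were tested. Of these 20 were lower and 2 higher, with a median of -0.71, where 59.6% of all genes were lower. After size factors 10 were lower and 2 higher with a median of -0.29, where 26.8% of all genes were lower, and with the length and GC trend taken out 12 were lower and 2 higher with a median of -0.30, where 27.6% were lower. Nothing particular to this list is read from these counts. The counts of the lists that follow are to be read beside the same shares. Adgrf5, an adhesion G protein receptor of endothelium, was at 1.88 ± 0.44 TPM in Colq tumors, against 8.73 ± 2.07 TPM in vector tumors (log2 fold change -1.74). Plvap, a component of endothelial fenestrae, was at 12.1 ± 0.51 TPM in Colq tumors, against 35.0 ± 8.16 TPM in vector tumors (-1.44; SD, n = 3 each). Cd93, a C-type lectin receptor (-1.35), and Apln, the apelin ligand of sprouting tip cells (-1.27), also fell (limma, adjusted p between 9.1e-05 and 0.00017 for these 4).

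The 2 that rose were Cd34, at 17.8 ± 2.23 TPM in Colq tumors, against 10.2 ± 2.54 TPM in vector tumors, and Ackr1, a chemokine-binding receptor of venules, at 1.73 ± 0.29 TPM in Colq tumors, against 0.46 ± 0.24 TPM in vector tumors (SD, n = 3 each; limma, adjusted p = 0.0061 and 0.0032). Cd34 is also a gene of adventitial fibroblasts and blood progenitors. Of the lymphatic list, 5 of 7 tested genes fell as deposited, while after size factors 2 fell and 2 rose, and without the length and GC trend 1 fell and 1 rose (median 0.01). Flt4, the lymphatic VEGF receptor, was at 0.54 ± 0.06 TPM in Colq tumors, against 2.44 ± 0.76 TPM in vector tumors (limma, adjusted p = 0.0018), and its fold change without that trend was -0.30 (adjusted p = 0.26). Vwf, picked out after its values were seen, did not pass (-0.63; limma, adjusted p = 0.16). It stood at 33.1, 33.6 and 31.8 TPM in Colq tumors, against 35.5, 37.5 and 102.5 TPM in vector tumors, so the vector mean rests on tumor 3. By library the groups overlapped, since the first portions of vector tumors 1 and 2 were at 30.04 and 33.05 TPM.

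The pathways of the receptors were read from lists. Of 15 VEGF pathway genes 12 fell and 1 rose (median -0.72), and after size factors 3 fell and 2 rose (median -0.20), a smaller share of falls than the 26.8% of all genes. Without the length and GC trend 2 fell and 2 rose (median 0.01). Vegfc, a ligand of Flt4 and Kdr, was at 5.99 ± 0.63 TPM in Colq tumors, against 10.9 ± 1.26 TPM in vector tumors (log2 fold change -0.77). It no longer passed with size factors applied (limma, adjusted p = 0.067), but passed without the length and GC trend (-0.61, adjusted p = 0.0051). Pik3r1, a regulatory subunit of phosphoinositide 3-kinase (-1.08), fell as deposited and after size factors, as did the focal adhesion kinase gene Ptk2 (-0.88). Without the length and GC trend neither passed, with Pik3r1 at -0.27 (adjusted p = 0.064) and Ptk2 at 0.01 (adjusted p = 0.94). Plcg1, the phospholipase downstream of Kdr, fell as deposited (-0.72) and stood at -0.18 after size factors (adjusted p = 0.18). The gene that rose was Vegfd, at 1.92 ± 0.13 TPM in Colq tumors, against 0.63 ± 0.33 TPM in vector tumors (SD, n = 3 each; limma, adjusted p = 0.0049).

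Of 7 angiopoietin and Tie pathway genes 5 fell and 1 rose (median -0.87), after size factors 3 fell and 1 rose, and without the length and GC trend 1 fell and 1 rose (median -0.08). Angpt2, the angiopoietin that endothelium itself secretes, was at 8.34 ± 1.76 TPM in Colq tumors, against 22.9 ± 3.29 TPM in vector tumors (-1.36; limma, adjusted p = 0.00022). Ptprb, the phosphatase VE-PTP that acts on Tie2 and VE-cadherin, fell to 0.59 ± 0.14 TPM in Colq tumors, against 2.32 ± 0.43 in vector tumors (SD, n = 3 each). Without that trend it stood at -0.10 (adjusted p = 0.69). Foxo1, a transcription factor held in check by Tie2 signaling, fell by 0.87 as deposited and stood at -0.08 without the trend (adjusted p = 0.62). The gene that rose was Dok2, an adaptor that binds Tek and is abundant in blood cells, at 11.8 ± 1.51 TPM in Colq tumors, against 3.47 ± 0.69 TPM in vector tumors (1.55; limma, adjusted p = 9.8e-05).

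Of 16 tested genes of the endoglin and bone morphogenetic protein list 11 fell and 1 rose, after size factors 5 fell and 3 rose, and without the length and GC trend 6 fell and 2 rose. Tgfb3, a ligand (-1.49), the type 2 receptor Bmpr2 (-1.32) and the signal transducers Smad5 (-1.18) and Smad1 (-0.93) fell as deposited and after size factors (limma, adjusted p between 2.4e-05 and 0.00013 as deposited). Without the trend Smad1 did not pass (-0.24, adjusted p = 0.084), and the other 3 did. The gene that rose was Tmem100, an endothelial target of this pathway, at 2.04 ± 0.40 TPM in Colq tumors, against 0.24 ± 0.07 TPM in vector tumors (SD, n = 3 each; limma, adjusted p = 0.00046). All 6 tested genes of the Slit, Robo and Unc5 list fell as deposited, with Robo1 at -1.57, Slit2 at -1.37, Unc5b, a receptor that Robo4 binds, at -1.25, and Arhgap39 at -0.91. After size factors 4 of the 6 fell, and without the length and GC trend 2 fell (median -0.19), Slit2 standing at -0.27 (adjusted p = 0.34) and Arhgap39 at -0.12 (adjusted p = 0.21).

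Of 10 Notch pathway genes 8 fell, 5 after size factors, and without the length and GC trend 1 fell and 1 rose. The receptors Notch1 (-1.19) and Notch2 (-1.10) and the ligand Jag1 (-0.95) fell as deposited and after size factors. Without the trend none of these 3 passed, with Notch1 at -0.24 (limma, adjusted p = 0.27), Notch2 at -0.20 (adjusted p = 0.12) and Jag1 at -0.32 (adjusted p = 0.064). The nuclear partner Rbpj had a deposited-scale change of -0.52 that passed, against 0.01 with size factors applied (adjusted p = 0.94), and was the gene that rose without the trend (0.31, adjusted p = 0.029).

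Of 16 junction partners 12 fell and 0 rose (median -1.16). After size factors 8 fell and 1 rose (median -0.65), and without the length and GC trend 8 fell and 1 rose (median -0.40). Among those that fell was Ctnnd1, the p120 catenin that keeps VE-cadherin at the membrane. It was at 35.7 ± 1.27 TPM in Colq tumors, against 100.2 ± 2.57 TPM in vector tumors. Ctnna1, alpha-catenin, was at 49.8 ± 1.12 TPM in Colq tumors, against 120.7 ± 4.46 TPM in vector tumors (SD, n = 3 each). Vcl, vinculin (-1.80), and Afdn, afadin (-1.43), fell too. These partners are made by most cell types. Of 17 endothelial transcription factors 9 fell and 1 rose (median -0.49, beside -0.50 over all genes), after size factors 7 fell and 3 rose, and without the length and GC trend 5 fell and 4 rose. Ets1 (-1.17), Ets2 (-1.17), Mef2c (-1.38) and Tcf4 (-1.34) fell, the last not passing without the trend (-0.22, adjusted p = 0.083), and Lmo2, a gene of blood and endothelial progenitors, rose (1.08; limma, adjusted p = 0.0022). The endothelial ETS factors Erg (-0.26; limma, adjusted p = 0.25) and Fli1 (0.03; adjusted p = 0.90), singled out after their values were seen, did not pass.

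Among molecules by which leukocytes adhere to endothelium, 4 of the 8 genes in the table were tested. Icam1 (-1.05), Icam2 (-0.70) and Vcam1 (-0.61) fell as deposited, and after size factors Icam1 alone of these 3 passed (-0.55; limma, adjusted p = 0.011). Without the length and GC trend Icam1 and Icam2 passed, and Vcam1 stood at 0.04 (adjusted p = 0.87). Ackr1, the other tested gene of this list, rose on each scale. It stood at 0.955 as deposited, 1.22 after size factors and 0.80 without the trend (limma, adjusted p = 0.0032, 0.0017 and 0.01). Sele and Madcam1, an endothelial selectin and the mucosal addressin, were under 0.5 TPM in every library, as was Glycam1.

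**Figure D5:**
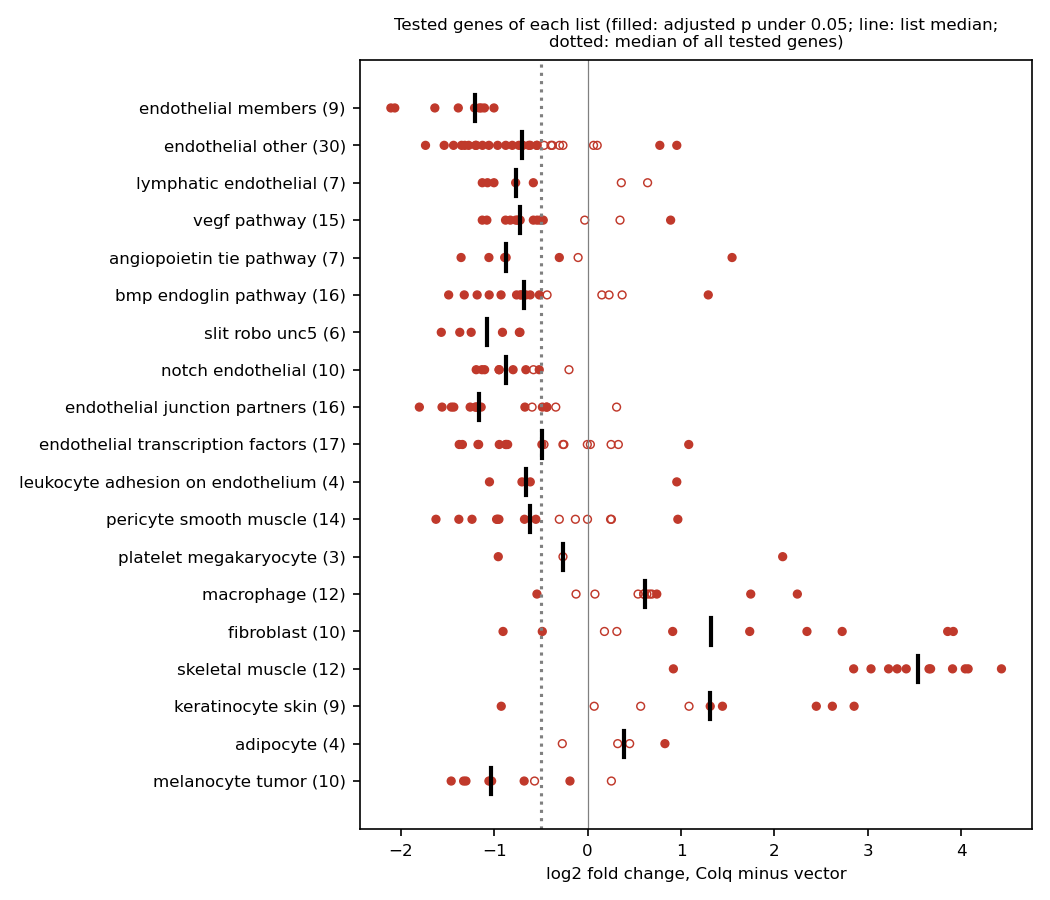
Log2 fold change (Colq minus vector, x axis) of each tested gene in the endothelial list, the pathway lists and the marker lists of other cell types, with the number tested in brackets, filled points for an adjusted p under 0.05, a black line for the list median and a dotted line for the median of all tested genes. The endothelial members have the lowest list median, at -1.21, and skeletal muscle the highest, at 3.53.

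Markers of other cell types moved with the same groups, and their part in the endothelial result was not tested. All 12 skeletal muscle genes rose, their summed level being between 1015 and 1035 TPM in Colq tumors, against 51.7 to 118.7 TPM in vector tumors, with Pvalb at 4.43 and Ckm at 3.66. Of 10 fibroblast genes 6 rose and 2 fell, with summed levels between 409.5 and 445.8 TPM in Colq tumors, against 226.1 to 298.3 TPM in vector tumors. Dpt (3.92) and Clec3b (3.86) rose most. The 2 that fell were the collagen genes Col1a1 (-0.91) and Col1a2 (-0.49), while Pdgfra (0.18) and Fap (0.31) did not pass. After size factors 7 rose and 1 fell, and without the length and GC trend 8 rose and 0 fell. Of 12 macrophage genes 3 rose and 1 fell, and 10 rose after size factors, with summed levels between 1599 and 1646 TPM in Colq tumors, against 468.5 to 989.9 TPM in vector tumors. Lyz2 rose by 2.25, Marco by 1.75 and Mrc1 by 0.74, while Mertk fell by 0.54. Lyz2 alone was at a mean of 869.3 TPM in Colq tumors, against 187.5 TPM in vector tumors. Much of the gap in the summed level therefore lay in this gene.

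Of the 10 melanocyte and tumor genes 8 fell and 0 rose as deposited. After size factors 6 fell and 2 rose, and without the length and GC trend 6 fell and 1 rose. Their summed levels were between 12400 and 12800 TPM in Colq tumors, against 21310 to 25230 TPM in vector tumors. Sox10 (-1.33), Tyrp1 (-1.30), Pmel (-1.06) and Slc45a2 (-1.04) were among those that fell. Mlana (0.25; limma, adjusted p = 0.084) and Oca2 (-0.57; adjusted p = 0.061) did not pass as deposited. Pericytes, which wrap small vessels, shared the lower side in part: of 14 tested pericyte and smooth muscle genes 8 fell and 1 rose (median -0.62), 6 fell and 2 rose after size factors, and 3 fell and 1 rose without the length and GC trend. Mcam (-1.62), which endothelium and melanoma cells also carry, Acta2 (-1.38) and Notch3 (-1.24) fell as deposited and after size factors. Notch3 did not pass without the trend (-0.44; limma, adjusted p = 0.063). Rgs5 fell by 0.55 as deposited, stood at -0.04 after size factors (limma, adjusted p = 0.67) and at -0.22 without the trend (adjusted p = 0.035). Desmin, Des, the pericyte gene that rose (0.97), is also a gene of skeletal muscle.

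Most platelet genes were low. Of 10 platelet and megakaryocyte genes 3 were tested, and the defining genes Gp1ba, Gp1bb, Gp6 and Treml1 were under 0.5 TPM in every library. The summed level of the list was between 72.0 and 82.5 TPM in Colq tumors, against 24.2 to 29.8 TPM in vector tumors, Pf4, which macrophages also make, rose (2.09), with 68.4, 77.7 and 67.2 TPM in Colq tumors, against 17.5, 19.4 and 14.6 TPM in vector tumors. Itgb3, which other cells share, fell by 0.96, and Itga2b stood at -0.26 (limma, adjusted p = 0.32). Among 9 tested skin genes 5 rose and 1 fell, with summed levels between 47.3 and 53.5 TPM in Colq tumors, against 7.59 to 133.1 TPM in vector tumors, so that the groups overlapped. Krt15 (2.62), Krt10 (2.85), Lor (2.45) and Perp (1.31) were among those that rose. After size factors 5 rose and 0 fell, and without the length and GC trend 6 rose and 1 fell. Of 4 tested adipocyte genes 1 rose as deposited, Adipoq (0.83), and Lipe (-0.27), Cfd (0.45) and Fabp4 (0.32) did not pass. After size factors 3 rose, Adipoq (1.18), Cfd (0.97) and Fabp4 (0.87), and without the length and GC trend 1 rose, Lipe (0.42). The summed level was between 78.0 and 86.4 TPM in Colq tumors, against 54.7 to 85.9 TPM in vector tumors.

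The label check on Colq itself gave 4.05, 5.03 and 3.86 TPM in Colq tumors, against 0.12, 0.07 and 0.18 TPM in vector tumors, with an exact two-sided permutation p of 0.1 (n = 3 each), the smallest possible. The libraries held between 19887 and 21602 genes above 0. Read depth cannot be recovered from TPM and is unknown for these libraries.

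The tested genes outside the list whose profile over the 8 libraries was closest to the mean profile of the 9 endothelial genes were ranked by the mean absolute distance of centred log2(TPM + 1) values. The 6 closest were Itga6, an integrin subunit that binds laminin (distance 0.05), Plod1, a collagen lysyl hydroxylase (0.06), Rnf213, a large ubiquitin ligase (0.07), Myo1e, an unconventional myosin (0.08), Uba1, the ubiquitin activating enzyme (0.08), and Cd276, an immune checkpoint ligand (0.09). Their log2 fold changes lay between -1.55 and -1.28. Itga6 was at 11.4 ± 0.34 TPM in Colq tumors, against 31.0 ± 5.31 TPM in vector tumors (SD, n = 3 each). Of the endothelial genes themselves, Eng (0.08), Tie1 (0.10) and Kdr (0.11) were nearest to that mean, of which each is a part, and Cdh5 (0.33), Flt1 (0.33) and Tek (0.81), the last of which is outside the mean, were farther off.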

How the data were processed

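Poly-A libraries without strand information were made from TRIzol-extracted RNA of ground tumors, per the labels' protocols. The deposited values are log2(TPM + 1), as the values show: they return to TPM with 2 decimals. RSEM, DESeq2 and build mm39 are named in the submitters' processing notes; the sources used here name no aligner, version or annotation. From the authors' deposited DESeq2 table the log2 fold change and adjusted p-value were used, its direction read from the sign of Colq; the sources used here do not say which libraries entered it. A deposited table of receptor repertoires holds no endothelial gene and was not used here.

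Portions of a vector tumor were averaged, on the log2 scale for the fits and as TPM for means. Genes with a mean of at least 1 TPM entered a limma fit of log2(TPM + 1), with a trended eBayes, Benjamini-Hochberg adjustment and a threshold of 0.05 (limma 3.58.1, R 4.3.3). The fit was also run on simulated data. Few genes were changed there, unlike the shift over most genes seen here, so nothing is read from that run. For single values, tumors were permuted exactly, two-sided. Exonic length and GC content came from GENCODE M21 (GRCm38) and covered 97.6% of tested genes; their trend was removed by loess with a span of 0.5. Python 3.11.15 and matplotlib 3.10.9 served for tables and figures.

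The 10 members and the 18 other lists were chosen with earlier results of these data known. Named genes are the 10 members, up to 4 genes of smallest p per list, and the 6 genes of closest profile; genes that made up a count of 5 or fewer, or that are said to be so, were named after their values were seen. The ratio to Pecam1 was also chosen then. Precision rests on the spread between 3 tumors a group.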

Additional observations from a re-analysis of the deposited data

How the results depend on the processing

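All 9 tested genes kept their direction under the 21 alternatives, in 186 refitted values, and the calls of 183 were unchanged: Tie1 and Robo4 lost their calls once the length and GC trend was removed, and Tie1 also where the Colq libraries counted as 1 sample. Between 6 (a mean TPM of at least 5, which leaves 6 members) and 9 members were lower in each fit, and 0 higher. The median of -1.21 moved to -1.52 with a pseudocount of 0.1, -0.83 after size factors, -0.997 with quantile normalization and -0.71 with the length and GC trend removed. Leaving out 1 tumor gave medians between -1.44, without vector tumor 3, and -1.09, without vector tumor 2. Over all genes, 8181 were lower and 1556 higher as deposited, 3675 and 3742 after size factors, 4160 and 3189 with quantile normalization, 3698 and 2656 once the length and GC trend was taken out, and 5712 and 788 when the Colq libraries count as 1 sample.

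A replicate block on the number in the labels, which only names tumors (correlations of same-numbered deviations of 0.03, 0.01 and 0.04), left 9 members lower with a median of -1.21, and changed the counts over all genes to 7928 lower and 1526 higher. Levels near 1 TPM, as for Tek, are imprecise, and TPM keeps no depth to say by how much.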
